A study of Mus musculus with 6 samples.

Results

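The smooth muscle contractile genes *Acta2*, *Actg2*, *Myh11*, *Cnn1*, *Tagln*, *Lmod1*, *Smtn*, *Mylk*, *Myl9* and *Csrp1* were examined as a list of 10 genes of shared function. All 10 were among the 19446 genes of the deposited table and all 10 were among the 15948 genes with enough reads to be tested. The cells were cardiac fibroblasts (CFs) of 5-week-old C57BL/6J mice, grown without treatment on fibronectin-coated plates and sequenced at an early passage. They had migrated out of pieces of atrial tissue pooled from littermates, so a culture does not stand for 1 animal and no ventricular tissue entered. There were 3 wild-type (WT) libraries and 3 CharmeKO libraries, the latter from mice in which an inserted PolyA signal stops transcription of the long non-coding RNA *Charme*. The knock-out is carried by every cell of the animal, and *Charme* itself is known from cardiomyocytes.

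As background, a fibroblast that is placed on a stiff surface in serum becomes a myofibroblast, a fibroblast that builds stress fibres from smooth muscle proteins and can pull on its surroundings. Actin and myosin filaments slide when the myosin light chain is phosphorylated by myosin light chain kinase, and calponin, transgelin and smoothelin sit on the actin filament. Most of these genes share a switch, the serum response factor (SRF), which binds CArG boxes in DNA together with myocardin or the myocardin-related factors, and TEAD factors bind a further short motif near many of the same genes.

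The promoters of *Acta2*, *Myl9* and *Lmod1* are shown because they hold the motif matches nearest to the start of transcription among the contractile genes. The sequences are the 250 bases before the start given by RefSeq on GRCm38.p6, and distances here refer to that start. The GENCODE gene spans given below begin inside these windows, at 34255590 for *Acta2*, 156775420 for *Myl9* and 135324807 for *Lmod1*. Most of the *Acta2* sequence thus lies within its GENCODE span. Capitals mark a CArG box (2 C, 6 bases that are A or T, 2 G), a CArG box with 1 G or C among those 6 bases, or the TEAD motif CATTCC read on either strand.
Acta2, chr19:34255374-34255623, minus strand: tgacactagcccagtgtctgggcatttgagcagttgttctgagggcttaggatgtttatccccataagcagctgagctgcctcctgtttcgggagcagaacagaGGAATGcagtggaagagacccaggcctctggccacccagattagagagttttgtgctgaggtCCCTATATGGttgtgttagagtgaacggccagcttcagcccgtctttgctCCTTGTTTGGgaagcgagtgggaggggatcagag
Myl9, chr2:156775214-156775463, plus strand: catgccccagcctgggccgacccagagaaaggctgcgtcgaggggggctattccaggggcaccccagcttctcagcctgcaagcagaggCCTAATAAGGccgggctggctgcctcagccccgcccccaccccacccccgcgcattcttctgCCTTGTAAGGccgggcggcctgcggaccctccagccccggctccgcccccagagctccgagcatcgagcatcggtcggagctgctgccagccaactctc
Lmod1, chr1:135324563-135324812, plus strand: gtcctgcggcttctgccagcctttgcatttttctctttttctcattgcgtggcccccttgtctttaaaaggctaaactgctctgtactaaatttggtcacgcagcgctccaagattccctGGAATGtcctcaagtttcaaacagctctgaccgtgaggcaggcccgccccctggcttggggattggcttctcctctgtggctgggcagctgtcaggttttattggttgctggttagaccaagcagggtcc
The *Acta2* promoter held a pair of near-matches to the CArG box, starting 84 and 34 bases before the start, and a CATTCC match 146 bases before it. The *Myl9* promoter held an exact CArG box 161 bases before the start and a near-match 99 bases before it, and the *Lmod1* promoter held CATTCC alone, 130 bases before the start. Over the 300 bases from 250 before to 50 after the start, an exact CArG box was present in 1.63% of all 32851 promoter windows and in 1 of the 8 windows that were given for 7 of the contractile genes. A CArG box with exactly that 1 change was present in 8.5% of all windows, and among the contractile genes in *Acta2* and *Myl9*. CATTCC was present in 14.7% of all windows and in 4 of the 8, those of *Acta2*, *Lmod1*, *Mylk* and *Smtn*, and TATAAA in 13.6% of all windows and none of the 8. A match is a description of the letters and not of a bound site, and the windows of *Actg2*, *Myh11* and *Tagln* were not analysed here.

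The libraries held 38330019 to 46797446 reads in genes, and the fewest reads behind any value of a contractile gene were 37, for *Myh11* in CharmeKO 2. Values below are normalised read counts, that is, reads divided by a size factor for each library. The feature added to the annotation for *Charme*, taken here as the entry CUFF405, had 5, 15 and 11 reads in WT 1 to 3 and 0, 6 and 3 reads in CharmeKO 1 to 3, so it was lower in each CharmeKO library than in the WT library with its number, at counts too low for a firm check of the labels. Fibroblast markers summed to between 492733 and 892513 normalised reads a library, endothelial markers to at most 350.0 and cardiomyocyte markers to at most 799. Libraries of the same number deviated together across genes, clearly for numbers 1 and 2, while CharmeKO 3 was as close to WT 2 as to WT 3, and they are also set side by side as pairs 1 to 3. The animals behind each library are not tied to it by the labels, so p-values measure the spread between libraries only, and in such bulk libraries fewer contractile cells and less RNA per cell cannot be told apart.

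Every contractile gene had a lower fitted mean in CharmeKO than in WT CFs, but the libraries of each genotype differed so much among themselves that none passed the test. The median log2 fold change of the 10 genes (CharmeKO minus WT) was -1.63, against 0.0022 over all tested genes. A log2 fold change under 0 was found for 10 of 10, against 49.6% of all genes, and one of -1 or less for 8 of 10, against 3.69% of all genes. By limma, 0 of the 10 had an adjusted p under 0.05, as did 0.0% of all genes, and 1 (*Actg2*) had an unadjusted p under 0.05 and was lower, against 0.646% of all genes. Over all genes and both directions, 143 genes (0.897%) had such an unadjusted p. Neither edgeR (0.0% of all genes called lower) nor DESeq2 (0.0376%) called any of the 10 without the replicate number in the model, and DESeq2 gave *Cnn1* no p.

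**Figure D1:**
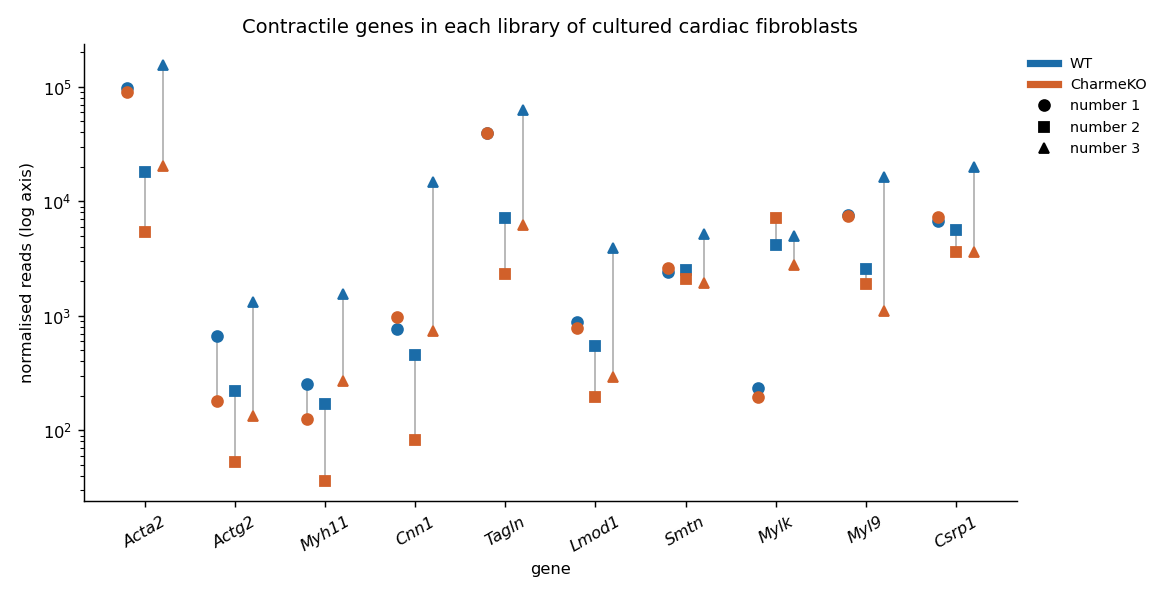
Normalised reads (log axis) of the 10 contractile genes in each of the 6 libraries, with 1 point per library, colour for WT or CharmeKO, marker shape for the replicate number and a grey line joining libraries of the same number. WT 3 is the highest point for 9 of the 10 genes and CharmeKO 2 the lowest for 7, and only *Actg2* shows groups that do not overlap.

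The muscle actins are described first. *Acta2* (ENSMUSG00000035783, minus strand of chromosome 19 at 34241090 to 34255590 on GRCm38) encodes smooth muscle alpha-actin, the usual marker of a myofibroblast. It gave 96903, 18191 and 155862 normalised reads in WT 1 to 3 and 90719, 5415 and 20212 in CharmeKO 1 to 3. CharmeKO 1 therefore stood among the WT libraries, WT 2 below 2 of the 3 CharmeKO libraries, and the groups overlapped. The log2 fold change was -1.60 ± 1.19 (SE, n = 3 and 3; limma adjusted p = 0.9999), and became -0.60 without CharmeKO 2, -0.97 without WT 3, -2.52 without WT 2 and -2.64 without CharmeKO 1.

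*Actg2* (ENSMUSG00000059430, minus strand of chromosome 6 at 83512905 to 83536265) encodes the gamma-actin of visceral smooth muscle. Its counts were 663, 221 and 1321 in WT 1 to 3 and 182, 53.1 and 134 in CharmeKO 1 to 3, so the highest CharmeKO library lay under the lowest WT library. It was the only contractile gene without overlap between the groups, against 1.98% of all genes that were lower in CharmeKO in this way. The log2 fold change was -2.40 ± 0.75 (SE, n = 3 and 3), with a 95% interval of -4.19 to -0.60 and a limma adjusted p of 0.9999, and the exact two-sided permutation test gave p = 0.1, the smallest that 3 against 3 libraries allow. It differed from *Acta2* in pair 1, where CharmeKO had 3.63-fold less *Actg2* but only 1.07-fold less *Acta2*.

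The myosin genes behaved unalike. *Myh11* (ENSMUSG00000018830, minus strand of chromosome 16 at 14194535 to 14291372), the smooth muscle myosin heavy chain, had 252, 170 and 1555 normalised reads in WT 1 to 3 and 125, 36.4 and 271 in CharmeKO 1 to 3. Each CharmeKO library was below the WT library of its number, by 2.01-, 4.57- and 5.71-fold, although CharmeKO 3 was above WT 1 and WT 2. The log2 fold change was -1.90 ± 1.03 (SE, n = 3 and 3; limma adjusted p = 0.9999).

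*Myl9* (ENSMUSG00000067818, plus strand of chromosome 2 at 156775420 to 156781658) encodes the regulatory light chain that the kinase acts on. It gave 7532, 2552 and 16276 normalised reads in WT 1 to 3 and 7463, 1914 and 1109 in CharmeKO 1 to 3. Nearly all of its difference lay in pair 3, at 14.7-fold, against 1.01-fold in pair 1 and 1.33-fold in pair 2.

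*Mylk* (ENSMUSG00000022836, plus strand of chromosome 16 at 34745210 to 35002420), the myosin light chain kinase, went its own way with 236, 4134 and 4951 normalised reads in WT 1 to 3 and 197, 7161 and 2765 in CharmeKO 1 to 3. Both number 1 libraries were low and the other 4 high, and the replicate number took 97.4% of its variance on the log2 scale and genotype 0.0600%. The log2 fold change of *Mylk* was -0.10 ± 1.65 (SE, n = 3 and 3), and its sign turned to 0.13 with edgeR and 0.12 with DESeq2. Its annotated transcripts include the short and long kinase forms, which a count per gene does not separate.

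The proteins that sit on or organise the actin filament mostly followed *Acta2*. *Tagln* (ENSMUSG00000032085, minus strand of chromosome 9 at 45929619 to 45936058) encodes transgelin, an actin-bundling protein. It had 39661, 7221 and 63007 normalised reads in WT 1 to 3 and 39180, 2309 and 6266 in CharmeKO 1 to 3. It was equal between the genotypes in pair 1 to within 1.01-fold (*Acta2*, 1.07-fold) and lower in CharmeKO by 3.13-fold in pair 2 and by 10.1-fold in pair 3.

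The ratio of *Acta2* to *Tagln*, per kilobase of exon, stayed between 2.10 and 2.92 in the 6 libraries, while *Acta2* itself ran over 28.8-fold and *Tagln* over 27.3-fold. It was 2.24 ± 0.0346 in WT and 2.38 ± 0.468 in CharmeKO (SD, n = 3 each), with the highest ratio in CharmeKO 3. The exact permutation test of this ratio gave p = 1.0.

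*Cnn1* (ENSMUSG00000001349, plus strand of chromosome 9 at 22099216 to 22109630) encodes calponin 1, which restrains the myosin ATPase on the filament. Its counts were 774, 457 and 14655 in WT 1 to 3 and 978, 81.6 and 741 in CharmeKO 1 to 3. WT 3 alone stood far above every other library, and in pair 1 CharmeKO was the higher library. The log2 fold change of -2.15 ± 1.51 (SE, n = 3 and 3) became -0.61 without WT 3.

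*Lmod1* (ENSMUSG00000048096, plus strand of chromosome 1 at 135324807 to 135368065), leiomodin 1, starts new actin filaments in smooth muscle. It gave 890, 548 and 3891 normalised reads in WT 1 to 3 and 788, 195 and 290 in CharmeKO 1 to 3, lower in CharmeKO by 1.13-, 2.80- and 13.4-fold in pairs 1 to 3. Its log2 fold change was -1.80 ± 0.83 (SE, n = 3 and 3; limma adjusted p = 0.9999).

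*Csrp1* (ENSMUSG00000026421, plus strand of chromosome 1 at 135720061 to 135752232) encodes a LIM-domain protein that partners with alpha-actinin. It had 6728, 5601 and 20001 normalised reads in WT 1 to 3 and 7301, 3579 and 3587 in CharmeKO 1 to 3, so WT 3 was high and the other 5 libraries lay between 3579 and 7301. *Smtn* (ENSMUSG00000020439, minus strand of chromosome 11 at 3517523 to 3540612), smoothelin, varied least, with 2420, 2499 and 5175 in WT 1 to 3 and 2600, 2117 and 1940 in CharmeKO 1 to 3. The 95% interval of the log2 fold change ran from -2.29 to 0.29 for *Csrp1* and from -1.29 to 0.26 for *Smtn* (n = 3 and 3), and the group values of both genes overlapped.

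Levels were compared between the genes as WT mean normalised reads per kilobase of exon. *Acta2* had 41129, *Tagln* 18425, *Myl9* 7561 and *Csrp1* 5510, and *Acta2* was above *Tagln* in each of the 6 libraries. The others followed with *Cnn1* at 1935, *Smtn* at 768, *Actg2* at 472, *Lmod1* at 450.0, *Mylk* at 276 and *Myh11* at 86.7. The WT libraries of neighbouring genes overlapped in their values throughout this order. In the CharmeKO means *Acta2* (17660.3), *Tagln* (8007) and *Myl9* (3008) again came first and *Myh11* (19.0) last. There *Cnn1*, at 219, came behind *Smtn* and *Mylk*. Its higher place in the WT means rested on WT 3, as *Cnn1* had 283, 167 and 5356 in WT 1 to 3. In WT 1 and WT 2 *Cnn1* was already behind *Smtn* (552 and 571). It was also behind *Mylk* (367) in WT 2, though ahead of *Mylk* in WT 1.

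The unevenness between libraries was larger for these genes than for most. The highest library exceeded the lowest by a median of 26.1-fold over the 10 genes, against 2.11-fold over all tested genes, and by 180-fold for *Cnn1*. WT 3 was the highest of the 6 libraries for 9 of 10, against 14.3% of all genes, and CharmeKO 2 was the lowest for 7 of 10, against 17.2% of all genes. The exceptions were *Mylk*, highest in CharmeKO 2 and lowest in CharmeKO 1, and *Smtn* and *Myl9*, lowest in CharmeKO 3. Without WT 3, only *Actg2* (-1.80) and *Tagln* (-1.03) kept a log2 fold change of -1 or less, 2 of 10 against 4.21% of all genes.

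The comparison within pairs asked whether the difference held among libraries of the same number. In pair 1, 8 of the 10 genes differed by less than 0.5 log2 units between the genotypes, a share near the 83.0% of all genes. These 8 ran from -0.26 for *Mylk* to 0.34 for *Cnn1*. Only *Actg2* (-1.86) and *Myh11* (-1.01) were lower in CharmeKO by more than 1 unit, 2 of 10 against 3.33% of all genes. In pair 2, 6 of 10 were lower by more than 1 unit, against 6.33% of all genes, and in pair 3 this held for 9 of 10, against 12.4% of all genes. The median log2 difference of the 10 genes thus went from -0.056 in pair 1 to -1.57 in pair 2 and -3.12 in pair 3, with all-gene medians of 0.019, 0.014 and -0.0050. *Acta2*, *Actg2*, *Myh11*, *Tagln*, *Lmod1* and *Myl9* were lower in all 3 pairs, 6 of 10 against 14.0% of all genes.

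**Figure D2:**
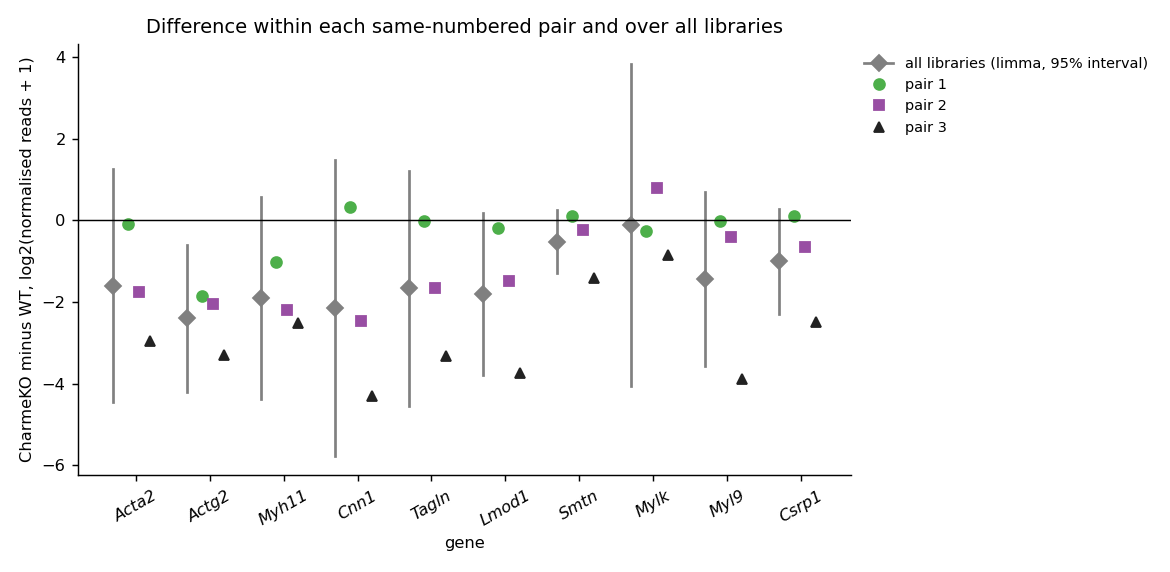
Log2 difference (CharmeKO minus WT) of each contractile gene in same-numbered pairs 1, 2 and 3, with 1 point per pair, a grey diamond with its 95% interval for the limma estimate over all libraries and a line at 0. The points of pair 1 sit near 0 except for *Actg2* at -1.86 and *Myh11* at -1.01, and those of pair 3 reach -4.30 for *Cnn1*.

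With the replicate number as a block, *Actg2*, *Myh11* and *Acta2* had a lower level in CharmeKO at an unadjusted limma p under 0.05, 3 of 10 against 3.23% of all genes, and 0 of 10 passed the adjusted threshold, as did 0.0% of all genes (adjusted p = 0.7997 for *Actg2* and *Myh11*). DESeq2 with the block, on the recovered reads, called *Actg2* and *Myh11* lower, 2 of 10 against 0.238% of all genes. It put *Actg2* at -2.42 ± 0.38 (SE; DESeq2 adjusted p = 8.5e-07) and *Myh11* at -1.93 ± 0.39 (SE; DESeq2 adjusted p = 0.000603). The call on these 2 genes therefore rests on DESeq2 with the pairs, and limma and edgeR did not make it with or without them.

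Contractile genes were next set against the other genes of their family, as a share of the family's reads. Such a share does not depend on how the libraries were scaled. *Acta2* and *Actg2* together made up 24.8%, 9.11% and 28.1% of actin reads in WT 1 to 3 and 22.7%, 3.29% and 6.15% in CharmeKO 1 to 3, the rest being almost wholly the cytoplasmic actins *Actb* and *Actg1*. The difference of the means was -9.95 percentage points, in a direction seen in all 3 pairs, and ran from -6.23 without WT 3 to -16.0 without CharmeKO 1. *Actb* and *Actg1* had log2 fold changes of -0.13 ± 0.50 and -0.25 ± 0.45 (SE, n = 3 and 3). *Acta1*, the skeletal muscle alpha-actin, was rare but uneven in the manner of *Cnn1*, with 58.1, 8.54 and 910 normalised reads in WT 1 to 3 and 60.6, 1.97 and 6.96 in CharmeKO 1 to 3.

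*Tagln* held 71.1%, 52.9% and 76.2% of transgelin reads in WT 1 to 3 and 66.9%, 26.1% and 37.3% in CharmeKO 1 to 3, with *Tagln2* as the rest. *Myl9* held 15.1%, 12.3% and 33.6% of the regulatory light chain reads in WT 1 to 3 and 14.8%, 8.67% and 3.79% in CharmeKO 1 to 3, beside *Myl12a* and *Myl12b*. In both families the 3 CharmeKO shares lay below the WT share of the same number, by little in pair 1 and by most in pair 3.

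*Csrp1* held 90.1% to 97.4% of its family's reads in WT and 80.6% to 91.4% in CharmeKO, with *Csrp2* as the rest. *Cnn1* was 1.60%, 1.13% and 21.3% of calponin reads in WT 1 to 3 and 2.07%, 0.212% and 1.88% in CharmeKO 1 to 3, so that *Cnn2* and *Cnn3* made most of the calponin RNA and WT 3 stood apart. *Myh11* was at most 0.794% of myosin heavy chain reads, in WT 3, and the non-muscle *Myh9* was the largest of that family.

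The share of the contractile gene or genes was lower in CharmeKO in all 3 pairs in 5 of the 6 families, the exception being calponin with 2 of 3. The exact permutation tests over unpaired libraries gave p = 0.2 for actin, transgelin, light chain and *Csrp1*, p = 0.3 for *Myh11* and p = 0.6 for calponin (adjusted over the 6 families by Benjamini-Hochberg, 0.3 to 0.6), where 0.1 is the smallest 3 against 3 libraries allow. Within pairs the smallest possible two-sided p is 0.25. At most 0.4% of the 50-base stretches of a contractile transcript were identical in a listed relative. The part of reads shared between relatives was not tested.

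**Figure D3:**
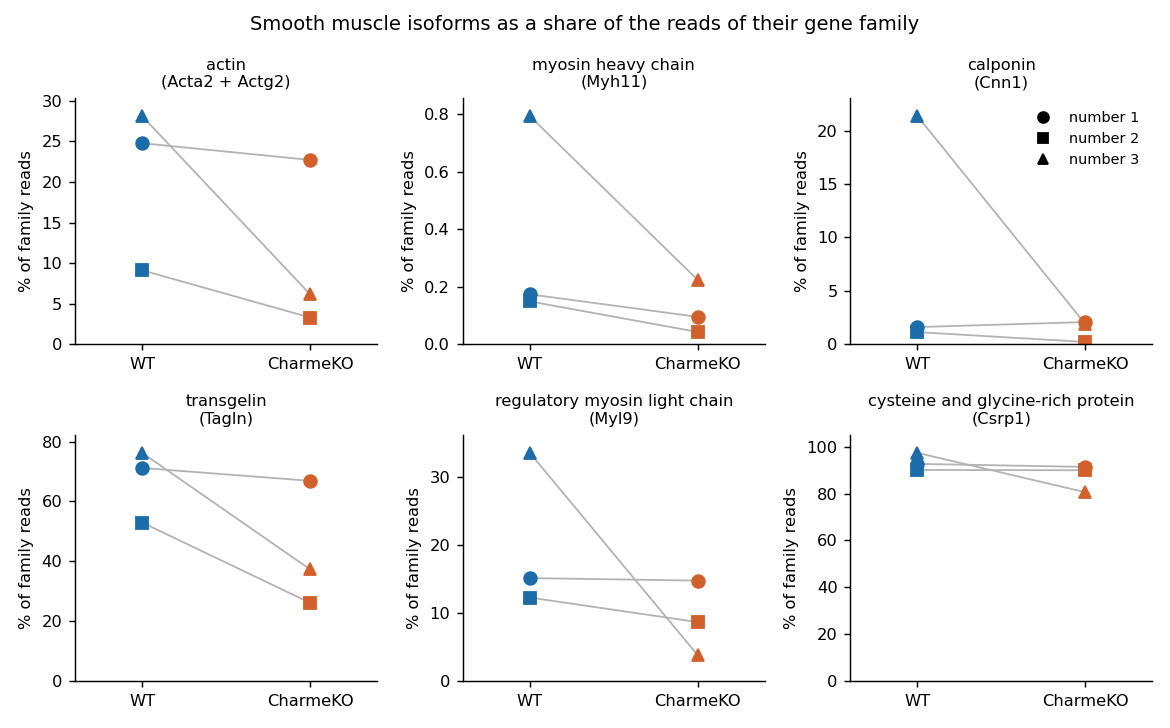
Share of the family's reads (percent, from 0) taken by the contractile gene or genes in each of 6 gene families. There is 1 point per library for WT and CharmeKO, and lines join libraries of the same number. The lines fall from WT to CharmeKO in all 3 pairs in every panel but calponin, where pair 1 goes from 1.60% to 2.07%.

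The contractile genes other than *Mylk* moved together from library to library. The 36 pairs of genes among these 9 had Pearson correlations of their log2 values of 0.59 to 0.996, with a median of 0.87, over the same 6 libraries, which also share their genotype difference. The 9 pairs of genes that included *Mylk* had correlations of -0.59 to 0.15. These correlations are a description of 6 libraries and carry no test.

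**Figure D4:**
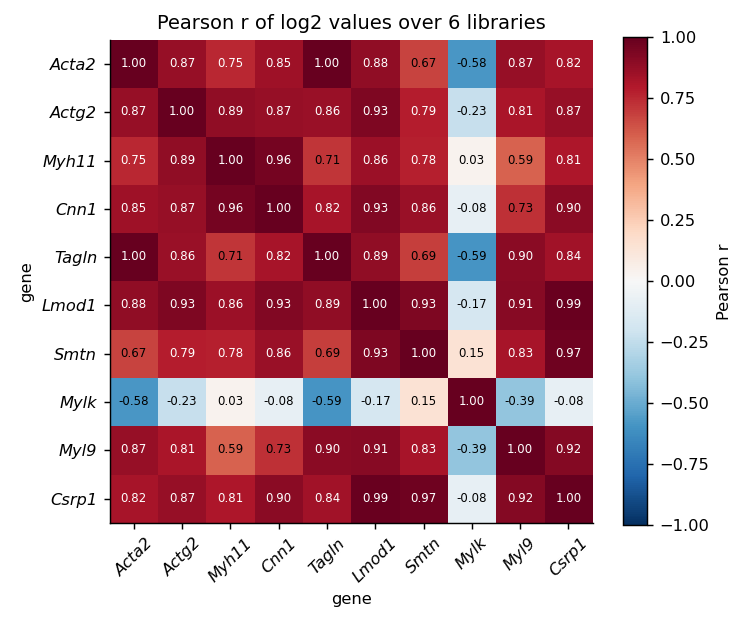
Pearson correlation of log2 values over the 6 libraries for each pair of the 10 contractile genes (colour scale from -1 to 1). The 36 pairs without *Mylk* range from 0.59 to 0.996 and the row of *Mylk* from -0.59 to 0.15.

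Among 11573 other genes with a mean of at least 100 normalised reads, the 5 whose log2 values followed the mean standardised level of the 10 genes most closely were *Lpar4* (r = 0.995), *Abca6* (r = 0.991), *Itga5* (r = 0.987), *Acsl4* (r = 0.986) and *Ctnnd1* (r = 0.986), over the 6 libraries. *Itga5*, the alpha chain of a fibronectin receptor, had 9494, 6429 and 37582 normalised reads in WT 1 to 3 and 9323, 4095 and 6561 in CharmeKO 1 to 3, with WT 3 again far above the rest. *Lpar4*, a receptor for lysophosphatidic acid, had 106, 64.1 and 325 in WT 1 to 3 and 70.2, 28.5 and 47.8 in CharmeKO 1 to 3. In all, 129 of the 11573 genes had a correlation over 0.9 with this mean level, which was highest in WT 3 (1.45 on the standardised scale). How many genes would reach this by chance over 6 libraries was not tested, and neither was shared regulation.

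*Srf* and the myocardin-related factors varied less between libraries than most of the contractile genes, the highest library exceeding the lowest by 1.70-fold for *Srf*, 1.49-fold for *Mrtfa* and 1.17-fold for *Mrtfb*. *Srf* had 3416, 4184 and 5516 normalised reads in WT 1 to 3 and 3497, 3242 and 3649 in CharmeKO 1 to 3, a log2 fold change of -0.31 ± 0.21 (SE, n = 3 and 3). The log2 fold changes of the actin-sensing cofactors *Mrtfa* (-0.05 ± 0.21) and *Mrtfb* (-0.07 ± 0.14) were smaller than their SE. *Myocd*, the muscle-restricted cofactor, had at most 9.85 normalised reads in any library and was listed at 0 in CharmeKO 2, too few to test.

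The list named SRF and its cofactors also held KLF, TEAD, GATA and NKX transcription factors. Of its 14 genes, 13 were tested, with a median log2 fold change of -0.11. A fitted value below 0 was found for 10, against 49.6% of all genes, and above 0 for 3. By limma with adjustment, 0 of the 13 passed, and 0 had an unadjusted p under 0.05, the lowest p-values being those of *Gata6* (0.53 ± 0.30), *Srf* and *Fhl2* (-0.32 ± 0.31). With the replicate block, *Fhl1* was lower at an unadjusted p under 0.05, 1 of 13 against the 3.23% of all genes given above, and 3 of the 13 were lower in all 3 pairs, against 14.0% of all genes.

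Further genes of the contractile apparatus, the actin cytoskeleton and focal adhesions were taken from a second list. Of 31 tested genes, 28 had a value below 0, against 49.6% of all genes, and 3 above, with a median log2 fold change of -0.51. Lower in all 3 pairs were 16 of the 31, against 14.0% of all genes. By limma with adjustment, 0 of the 31 passed. *Itga1* and *Lpp* were lower at an unadjusted limma p under 0.05, against 0.646% of all genes. With the replicate block, 9 of the 31 were lower at an unadjusted limma p under 0.05, against 3.23% of all genes, and 0 passed with adjustment. *Itga1*, the alpha chain of a collagen receptor, had 677, 1582 and 1034 normalised reads in WT 1 to 3 and 506, 614 and 618 in CharmeKO 1 to 3, with no overlap between the groups (log2 fold change -0.84 ± 0.33, SE).

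*Lpp*, a LIM protein of focal adhesions and smooth muscle, had 29323, 25186 and 54622 normalised reads in WT 1 to 3 and 19276, 13363 and 22751 in CharmeKO 1 to 3. It too had no overlap between the groups, which in this direction held for 1.98% of all genes. Its log2 fold change was -0.93 ± 0.36 (SE, n = 3 and 3, limma adjusted p = 0.9999). *Nexn*, an actin-binding protein, was next at -0.65 ± 0.29. DESeq2 with the replicate block called 2 of the 31 lower, against 0.238% of all genes. These were *Lpp* (DESeq2 adjusted p = 0.000603) and *Ldb3* (DESeq2 adjusted p = 0.0327), the latter a Z-disc protein named here after its value was seen.

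The 13 tested paralogues of the contractile genes had a median log2 fold change of -0.20, with 10 below 0, against 49.6% of all genes, and 3 above. Limma passed 0 of them with adjustment and 0 at an unadjusted p under 0.05, with or without the replicate block. The lowest p-values were those of *Mylk3* (0.71 ± 0.42), *Myh10* (-0.63 ± 0.41) and *Mylk2* (-1.79 ± 1.72). The 16 genes for TGF-beta response and myofibroblast matrix had a median of -0.42, with 11 below 0, against 49.6% of all genes, and 5 above. Likewise 0 of them passed either way without the replicate block. With it, *Col8a1* was lower at an unadjusted limma p under 0.05, against 3.23% of all genes. Without the block, the lowest limma p-values of this list were those of *Itgb3* (-0.67 ± 0.48), *Col8a1* (-0.53 ± 0.42) and *Postn* (-1.17 ± 0.99).

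**Figure D5:**
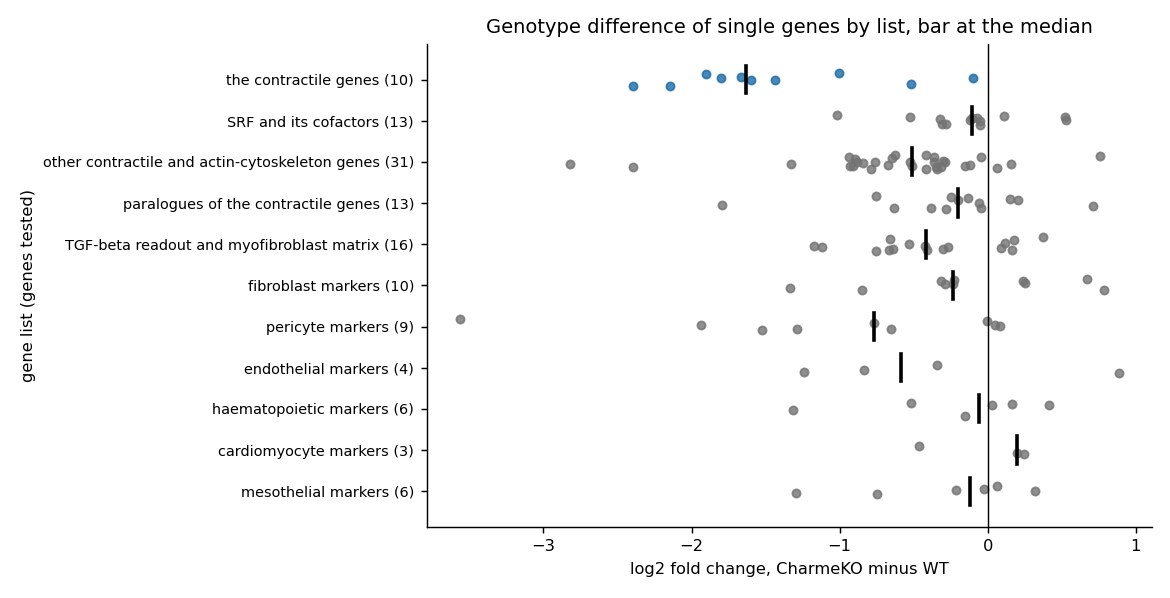
Log2 fold changes (CharmeKO minus WT, limma) of the single genes of each gene list, with 1 point per tested gene and a bar at the list's median. The 10 contractile genes have a median of -1.63, the other contractile genes -0.51, the pericyte markers -0.77 and the list named SRF and its cofactors -0.11.

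Markers of the other cells such a culture could hold were read beside the contractile genes, since pericytes and vascular smooth muscle make the same proteins. The pericyte markers summed to 25562 to 33008 normalised reads in WT and 25719 to 30483 in CharmeKO, overlapping between the groups and made up mostly of *Pdgfrb*, which fibroblasts also express. Of 9 tested pericyte markers, 7 had a value below 0, against 49.6% of all genes, and 2 above. By limma, 0 passed with adjustment. *Cspg4* alone was lower at an unadjusted limma p under 0.05 (0.646% of all genes), joined by *Abcc9* with the replicate block (3.23% of all genes). *Cspg4*, the NG2 proteoglycan of pericytes, had 450.1, 676 and 3663 in WT 1 to 3 and 241, 105 and 25.2 in CharmeKO 1 to 3, highest in WT 3 as most contractile genes were (log2 fold change -3.56 ± 1.05, SE, n = 3 and 3; limma adjusted p = 0.9999).

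*Abcc9* (at most 18.2 normalised reads and 0 in CharmeKO 3) and *Kcnj8* (at most 66.2) were near the floor. *Rgs5* reached 997 in WT 2 and at most 201 elsewhere, so it did not go with the contractile genes, and the smooth muscle channel subunit *Kcnmb1* had at most 21.7 and was listed at 0 in WT 2, CharmeKO 2 and CharmeKO 3. The part of pericytes or smooth muscle cells in the contractile result was not tested.

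Fibroblast markers had a median log2 fold change of -0.23, with 6 of 10 below 0, against 49.6% of all genes, and 4 above. Limma passed 0 of them with adjustment and 0 at an unadjusted p under 0.05. The lowest p-values were those of *Thy1* (-1.34 ± 0.77), *Gsn* (-0.32 ± 0.23) and *Ddr2* (-0.23 ± 0.18). With the replicate block, *Dcn* and *Lum* were higher in CharmeKO at an unadjusted limma p under 0.05, against 2.14% of all genes. Endothelial markers summed to 123 to 284 normalised reads in WT and 40.9 to 350.0 in CharmeKO, with *Cdh5* at 0 in WT 2 and CharmeKO 3. Cardiomyocyte markers summed to 148 to 594 in WT and 162 to 799 in CharmeKO, over the 5 of 10 listed genes that were measured. Haematopoietic markers (1619 to 7696 in WT, 711 to 16629 in CharmeKO) and mesothelial markers (1555 to 9893 and 708 to 10059) were lowest in CharmeKO 3 and highest in CharmeKO 1, and their part in the contractile result was not tested.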

How the data were processed

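Poly(A) RNA of cultured CFs was sequenced with a directional kit. The authors aligned reads with STAR, counted them per gene on the reverse strand, dropped genes with few reads and divided the counts by DESeq2 size factors. The deposited values are therefore a normalised signal per gene, with 19446 genes. The study's methods name genome build GRCm39 and the submitters' processing notes list GRCh38 and GRCm39. The table holds no coordinates, so positions come from the GENCODE M21 annotation on GRCm38 by Ensembl ID. Reads were recovered from the values (116676 of 116676 whole, 100.0%, within 1e-06). STAR's gene counting keeps reads of a single place and gene, and *Mylk*, *Smtn* and *Tagln* overlap only antisense genes.

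Groups and numbers came from the sample titles. The test was limma 3.58.1 on log2(value + 1) with the variance trended on the mean, which understates changes of low genes, with genotype as the term, over the 15948 genes that reached 10 reads in 2 or more libraries, with Benjamini-Hochberg adjustment and a threshold of 0.05. edgeR 4.0.16 called 0 genes on the recovered reads and DESeq2 1.42.0 called 8. The code was tested on simulated data. Same-numbered libraries deviated together (correlation over genes 0.762, 0.514 and 0.217 in pairs 1 to 3, with 0.222 between WT 2 and CharmeKO 3), so the number was also fitted as a block. Shares and ratios were compared by exact two-sided permutation tests. Totals were 43168672, 38330019 and 38498183 reads in WT 1 to 3 and 44709206, 39823822 and 46797446 in CharmeKO 1 to 3. Reads carry no molecular identifiers, so depth covers counting error only.

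The contractile genes and all lists were chosen with earlier results of these data known. Named genes were the contractile genes, their paralogue families, *Srf*, *Myocd*, *Mrtfa* and *Mrtfb*, the 3 genes of lowest limma p in every other list, the 5 genes most like the contractile mean and CUFF405. Lists of endothelial, cardiomyocyte, haematopoietic and mesothelial markers are given as sums. *Pdgfrb*, *Rgs5*, *Kcnmb1*, *Ldb3*, *Fhl1*, *Dcn* and *Lum* were named after their values were seen. Alternatives changed the tool, size factors, pseudocount, read filter and replicate block and left out each library.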

Additional observations from a re-analysis of the deposited data

How the results depend on the processing

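The count of genes past the adjusted threshold was 0 with limma and edgeR under every alternative run, 8 with DESeq2 and 64 with DESeq2 and the replicate block. Over 210 values of single contractile genes under alternatives, 201 kept their direction and side of the threshold, 2 passed it (*Actg2* and *Myh11* with DESeq2 and the replicate block, values in the report) and 7 reversed, all of *Mylk*. *Mylk* became 0.13 with edgeR and TMM, 0.12 with edgeR on DESeq2 size factors, 0.12 with DESeq2 and 0.27 with the replicate block and without pair 3, and ran from -1.52 to 1.39 when 1 library was left out. With 1 library of each genotype per number, the limma replicate block cannot change a fold change. The median of the 10 genes therefore stayed at -1.63 under it by design. The 10 single-gene values with this block, counted above, kept their direction for the same reason. The block changed no adjusted call of limma. The median ran from -2.45 to -0.87 when 1 library was left out. The number of the 10 with a log2 fold change of -1 or less was 8, ran from 2 (without WT 3) to 9 when 1 library was left out, and was 3 without pair 3. The calponin share difference ran from -10.1 percentage points to 0.021, that of the actins from -16.0 to -6.23, transgelin from -35.1 to -14.7, the light chain from -15.3 to -4.63, *Csrp1* from -8.12 to -2.70 and *Myh11* from -0.363 to -0.0408; the calponin, light chain and *Myh11* values nearest 0 were those without WT 3. Single genes ran from -2.64 to -0.60 (*Acta2*), -3.09 to -1.80 (*Actg2*), -2.57 to -0.94 (*Myh11*), -3.11 to -0.61 (*Cnn1*), -2.79 to -0.74 (*Tagln*), -2.39 to -0.98 (*Lmod1*), -0.71 to -0.16 (*Smtn*), -2.22 to -0.80 (*Myl9*) and -1.35 to -0.43 (*Csrp1*). The lowest read count behind a contractile value was 37, and the part of depth was not tested. The cause of the differences between libraries was not tested.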
